A study of Mus musculus with 20 samples.

Results

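Hepatic stellate cells of the mouse liver were compared before and after growth in culture, using all genes of 8 of the 20 libraries of a study of liver mesenchyme. The study's other 12 libraries hold portal mesenchymal stem cells (PMSCs) and their myofibroblasts, 4 libraries in each of 3 groups. The cultured group, titled HSC-MFs-7d and here HSC-MF-7d, holds 4 libraries of myofibroblasts that stellate cells gave rise to in culture. The group set against it, titled HSCs and here HSC, holds 4 libraries of stellate cells that were not cultured. All cells came from the liver of C57BL/6 mice; no genotype, treatment, age or sex was used to tell the groups apart. The sample titles give 7 days of culture and the series description gives 3 days, so the culture time is uncertain. The labels do not state that replicates are different animals or dishes, and p-values therefore measure only the spread between these samples, which may be technical. The way the cells were isolated and what they were grown on are not given in the sources used here.

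Stellate cells are the pericytes of the liver sinusoid, a capillary lined by fenestrated endothelium. In a healthy liver they are quiescent, store vitamin A as retinyl ester in lipid droplets, carry receptors for vasoactive hormones and secrete hepatocyte growth factor and bone morphogenetic proteins. After liver injury, and on stiff culture plastic, they are known to lose their droplets, divide, acquire smooth muscle actin and lay down collagen, a state called the activated stellate cell or myofibroblast.

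Levels are CPM, read counts scaled to a common library size by trimmed means of the library ratios, and a log2 fold change is given with its standard error (SE). The 4 values of a group are always listed in the order of replicates 1 to 4. A gene was called where its adjusted p from edgeR's quasi-likelihood test was under 0.05. Of 14751 genes tested, 5315 were higher in HSC-MF-7d (36.0%) and 5674 were lower (38.5%), together 74.5%, and every count of members below stands against these shares. The median log2 fold change over all tested genes was -0.03, and 0.08 with libraries scaled by their totals alone. The libraries of both groups did not overlap for 71.3% of genes, and the 1st principal component, which parted the groups, held 92% of the variance. With this background a call says little by itself, and the size of a change and its place in a group of genes say more.

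**Figure D1:**
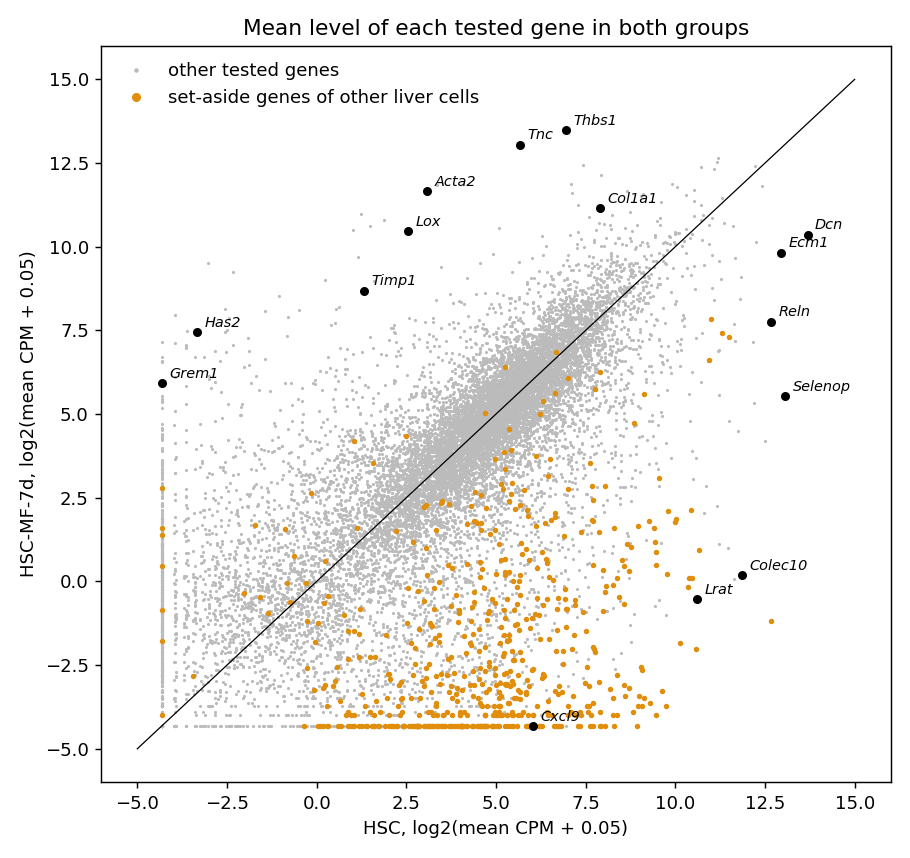
Mean level of every tested gene in HSC-MF-7d (vertical axis) and HSC (horizontal axis), as log2 of mean CPM plus 0.05; the line marks equal levels. Genes of other liver cell types, in orange, lie mostly below the line, and 15 genes described in the text are named.

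Transcripts of hepatocytes, endothelium and macrophages were abundant in the uncultured libraries and far lower after culture. They are set aside here, together with those of other immune cells and cholangiocytes. Lists of genes of hepatocytes, endothelium, Kupffer cells and macrophages, other immune cells and cholangiocytes held 576 tested genes, of which 14 were higher and 543 lower in HSC-MF-7d. Hepatocyte genes summed to 411, 456, 445 and 403 CPM in HSC-MF-7d and to 40638, 55030.3, 10629.6 and 15364 CPM in HSC, so that HSC replicates 1 and 2 carried more of them than replicates 3 and 4. The hepatocyte marker Alb, which encodes albumin, had 0.101 to 0.637 CPM in HSC-MF-7d and 2534 to 10514 in HSC. Endothelial genes summed to 916 to 1002 CPM in HSC-MF-7d and 23839 to 28582 in HSC, and the sinusoidal marker Stab2 had 0.526 to 1.43 CPM in HSC-MF-7d and 1246 to 1536 CPM in HSC. Kupffer cell and macrophage genes summed to 385 to 413 CPM in HSC-MF-7d and 8574 to 26507 in HSC, and their marker Clec4f had 0.152 to 2.16 CPM in HSC-MF-7d and 660.4 to 2417 CPM in HSC. Other immune genes summed to 36.6 to 52.4 CPM in HSC-MF-7d and 212 to 464 in HSC, and cholangiocyte genes to 6.48 to 15.3 and 8.53 to 33.7 CPM. A loss in bulk RNA cannot tell fewer cells of a type from less RNA per cell, and a gene that stellate cells share with these cell types can fall for either reason; for the losses below, the part of other cells was not tested.

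Of the other mesenchymal cells of the liver, the marker sums of portal fibroblasts and smooth muscle were higher in the cultured group and that of mesothelium lower. The portal fibroblast markers Cd34, Gli1 and Thy1 averaged 1.05, 0.206 and 4.16 CPM in HSC-MF-7d, against 8.35, 0.407 and 2.20 CPM in HSC. The whole portal fibroblast list summed to 2913 to 3237 CPM in HSC-MF-7d and 1556 to 1772 in HSC, and 2032 CPM of the cultured sum came from fibulin-2 (Fbln2). Of its 30 tested genes, 9 were higher and 14 lower. Mesothelial genes summed to 24.0 to 40.6 CPM in HSC-MF-7d and 241 to 2095 in HSC, where the complement gene C3 gave 849 CPM on average, and the markers Msln and Upk3b averaged 0.815 and 0 CPM in HSC-MF-7d and 0.332 and 0.939 CPM in HSC. The smooth muscle list summed to 4245 to 5581 CPM in HSC-MF-7d and 1569 to 2014 in HSC; of its 17 tested genes, 9 were higher and 7 lower, and 3218 CPM of the cultured sum came from Acta2. The smooth muscle myosin Myh11 was present in both groups, at 388, 365, 269 and 440.5 CPM in HSC-MF-7d and 94.2, 51.3, 98.7 and 56.5 CPM in HSC. It is a contractile gene that activated stellate cells share with vascular smooth muscle, and the part of smooth muscle cells and portal fibroblasts in the values below was not tested.

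**Figure D2:**
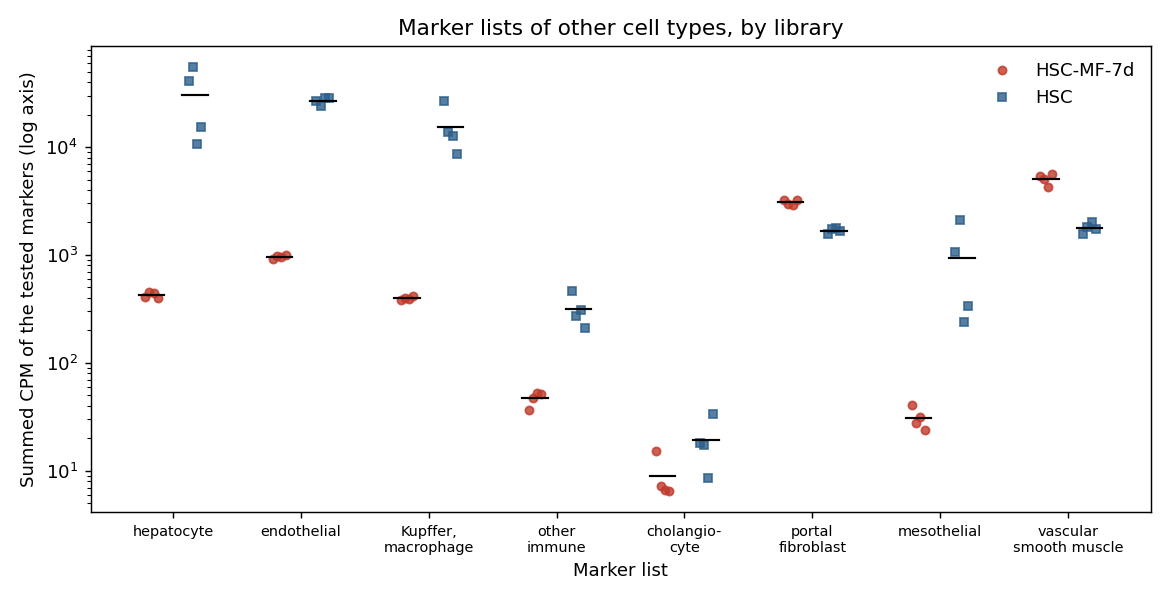
Summed CPM (log axis) of the tested markers of 8 other cell types in each library, HSC-MF-7d in red left of HSC in blue, with the group mean as a bar. Hepatocyte, endothelial and macrophage sums reached at most 1002 CPM in an HSC-MF-7d library and were at least 8574 CPM in every HSC library, while portal fibroblast and smooth muscle sums were higher in HSC-MF-7d.

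The genes that mark stellate cell activation in textbooks moved by large steps. Acta2, the smooth muscle actin used to stain activated stellate cells, had 3472, 3204, 2697 and 3499 CPM in HSC-MF-7d and 5.91, 12.6, 7.65 and 7.71 CPM in HSC. The groups lay far apart, with a log2 fold change of 8.57 ± 0.26 (SE) and an adjusted p of 1.3e-15. Lox, the lysyl oxidase that cross-links collagen and elastin, had 1624, 1311, 1446 and 1239 CPM in HSC-MF-7d and 2.96, 12.5, 2.26 and 5.62 CPM in HSC, a change of 7.91 ± 0.40 (adjusted p = 1.3e-12). Timp1, an inhibitor of the matrix metalloproteinases on chromosome X (20870166 to 20874737 in GRCm38.p6), had 425, 417, 394 and 417 CPM in HSC-MF-7d and 1.09, 5.96, 1.38 and 1.31 CPM in HSC. All 4 cultured libraries were above the uncultured libraries, although HSC replicate 2 stood above the other 3, and the change was 7.40 ± 0.38 (adjusted p = 1.6e-12).

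Both markers of quiescence were lower. Lrat, the acyltransferase that makes retinyl ester, had 0.105, 0.507, 0.613 and 1.33 CPM in HSC-MF-7d and 1495, 1571, 1667 and 1540.0 CPM in HSC, a change of -11.25 ± 0.48 (adjusted p = 1.1e-13). Reln encodes reelin, a secreted glycoprotein by which stellate cells are told from other liver fibroblasts. It had 205, 227, 216 and 222 CPM in HSC-MF-7d and 4725, 7219, 7948 and 6299.7 CPM in HSC, a change of -4.91 ± 0.32 (adjusted p = 4.1e-11). Lrat was thus almost gone, while Reln remained at 205 to 227 CPM in the cultured libraries.

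The panel's other 7 genes moved in both directions. The actin-binding protein gene Tagln had 3311, 3085, 2673 and 3296 CPM in HSC-MF-7d and 191, 129.9, 106 and 131 CPM in HSC (log2 fold change 4.47 ± 0.25, adjusted p = 6.3e-12). Col1a1 and Col3a1, which encode the chains of collagens I and III, went opposite ways. Col1a1 had 2269, 2366, 2159.8 and 2347 CPM in HSC-MF-7d and 129, 516, 137 and 173 CPM in HSC, of which replicate 2 stood apart from the rest (log2 fold change 3.26 ± 0.33, adjusted p = 2.8e-08). Col3a1 had 671, 691, 679.9 and 683 CPM in HSC-MF-7d and 1090.5, 2157, 1366 and 1305 CPM in HSC, so that every cultured library lay below every uncultured library (log2 fold change -1.12 ± 0.19, adjusted p = 2.3e-05).

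Hgf, the hepatocyte growth factor gene, had 101.1, 117, 132 and 119 CPM in HSC-MF-7d and 815, 1105, 1366 and 921 CPM in HSC (log2 fold change -3.17 ± 0.31, adjusted p = 2.1e-08). Mki67, which marks dividing cells, was higher at 117, 120.3, 114 and 138 CPM in HSC-MF-7d, against 33.9, 22.5, 33.8 and 21.4 CPM in HSC (log2 fold change 2.13 ± 0.23, adjusted p = 7.9e-08). The intermediate filament gene Des and the PDGF receptor gene Pdgfrb, both markers of stellate cells in either state, differed little. Des averaged 142 ± 8.09 CPM in HSC-MF-7d and 216 ± 33.1 CPM in HSC (SD, n = 4 each; log2 fold change -0.60 ± 0.18, adjusted p = 0.00622). Pdgfrb averaged 417 ± 15.7 CPM in HSC-MF-7d and 549 ± 114 CPM in HSC, with overlapping libraries (log2 fold change -0.40 ± 0.16, adjusted p = 0.0278), so that the call of Pdgfrb was weak. It was lost with libraries scaled by totals alone, where the adjusted p was 0.109, with limma on TPM (0.172), and without HSC replicate 2 (0.127), HSC replicate 3 (0.1), or HSC-MF-7d replicate 1 (0.0755), 2 (0.0604) or 3 (0.0598).

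**Figure D3:**
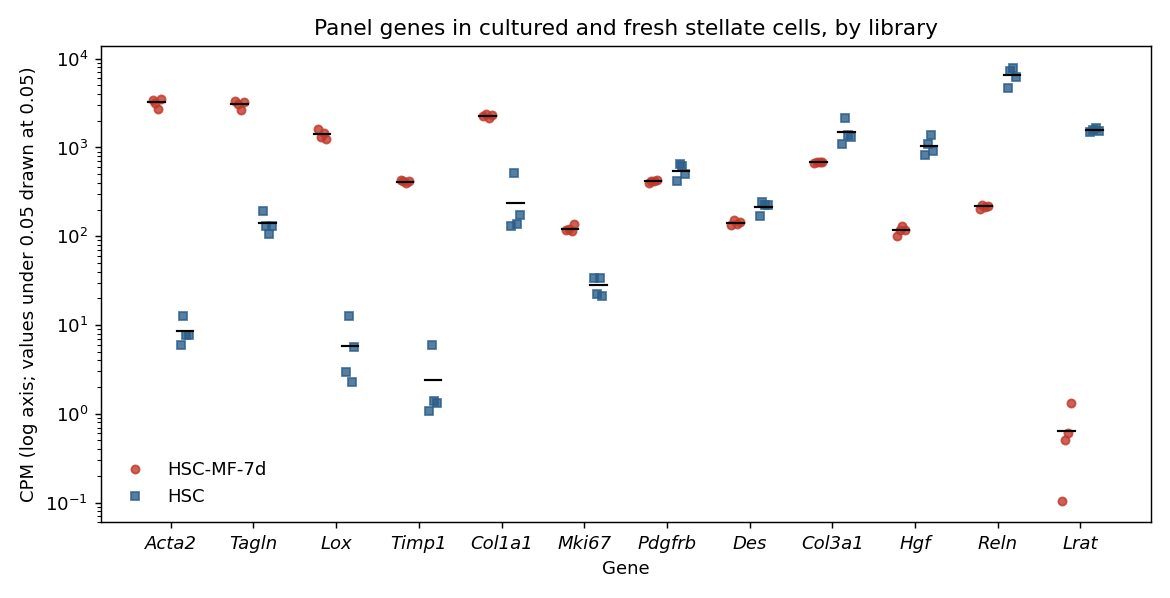
CPM (log axis) of 12 panel genes in each library, HSC-MF-7d in red left of HSC in blue, with group means as bars. Acta2 to Mki67 are higher in HSC-MF-7d, Pdgfrb and Des lie close together, and Col3a1 to Lrat are higher in HSC.

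The quiescent programme was lost across most of its genes, to very different extents. Of 51 tested genes known from uncultured stellate cells, 43 were lower, 7 were higher and 1 was not called, with a median log2 fold change of -4.20. The largest falls came in secreted proteins and membrane proteins. Colec10, a collectin of the complement system on chromosome 15 (54410774 to 54466360), had 0.368, 1.11, 1.23 and 1.65 CPM in HSC-MF-7d and 3123, 3453, 4127 and 4204 CPM in HSC. Tgfbi, which encodes a matrix adhesion protein induced by TGF-beta in many cell types, had 0.789, 0.912, 0.886 and 1.43 CPM in HSC-MF-7d and 2445, 4034, 3398 and 2829 CPM in HSC. Both genes were almost gone from the cultured libraries, and the changes were -11.74 ± 0.42 and -11.61 ± 0.64 (adjusted p = 2.4e-13 and 4.2e-12). Steap4, a metalloreductase gene, averaged 1.93 ± 0.527 CPM in HSC-MF-7d and 2811 ± 745 CPM in HSC (SD, n = 4 each; log2 fold change -10.51 ± 0.64, adjusted p = 1.8e-11).

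Other genes of the list fell by smaller steps. Cygb, the globin cytoglobin of stellate cells, averaged 1.197 CPM in HSC-MF-7d and 341 in HSC, and Gfap, the glial filament gene long used as a stellate marker, 0.120 and 21.0 CPM. The sulfonylurea receptor Abcc9 and the potassium channel subunit Kcnj8, which together form the ATP-sensitive channel of pericytes, averaged 27.8 and 5.36 CPM in HSC-MF-7d, against 2908 and 271 CPM in HSC. Rgs5, a regulator of G-protein signalling typical of pericytes, had 121, 145, 169 and 137 CPM in HSC-MF-7d and 3494, 4774, 5324 and 4760.2 CPM in HSC, a change of -5.01 ± 0.28 (adjusted p = 5.1e-12). Ecm1, on chromosome 3 (95734147 to 95739876), encodes a secreted matrix protein. It had 829, 949.5, 906 and 935 CPM in HSC-MF-7d and 6101, 7686, 9821 and 7930.2 CPM in HSC. Its log2 fold change was -3.12 ± 0.14 (adjusted p = 1.1e-13), and every cultured library still held at least 829 CPM.

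Not every gene of the list went down. Bco1, the oxygenase that cleaves beta-carotene to retinal, had 1350.0, 1285, 1352 and 1263 CPM in HSC-MF-7d and 108, 145, 133 and 154 CPM in HSC, a rise of 3.28 ± 0.23 (adjusted p = 1.6e-10). Ncam1, a neural adhesion molecule, averaged 99.4 ± 17.1 CPM in HSC-MF-7d and 0.317 ± 0.238 CPM in HSC (SD, n = 4 each; log2 fold change 8.28 ± 0.42, adjusted p = 1.2e-12). Nes, the intermediate filament nestin, averaged 786 and 127 CPM, and the protocadherin Pcdh7 469.9 and 57.7 CPM, both higher in HSC-MF-7d. Spon2, Nptn and Hsd11b2 were the other 3 that rose, the last of them to 0.260 CPM only. Bmp10 was not called, at 120.3, 195, 169 and 197 CPM in HSC-MF-7d and 111, 108, 176 and 121 CPM in HSC (log2 fold change 0.40 ± 0.22, adjusted p = 0.101).

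Retinoid genes were lower more often than higher. Of 34 tested, 8 were higher and 18 lower (median log2 fold change -0.70). Enzymes that store or clear retinoid were among the lower ones: besides Lrat, the retinal reductase gene Dhrs3 averaged 6.70 CPM in HSC-MF-7d and 140.2 in HSC, and Cyp26b1, which breaks down retinoic acid, 10.7 and 314 CPM. Adh1, the alcohol dehydrogenase that acts on retinol, had 0 counts in all 4 HSC-MF-7d libraries and 207, 163, 43.2 and 85.7 CPM in HSC. Its fall was at least 3002-fold, taking 3 counts over the 4 cultured libraries as the floor, and its HSC values were higher in replicates 1 and 2, as the hepatocyte sums were; hepatocytes are known to express it strongly. The retinoic acid receptors Rara and Rarg and the partners Rxra and Rxrb were lower, with Rxra at 127 CPM in HSC-MF-7d and 517 CPM in HSC. Rarb was higher at 95.3 and 62.5 CPM, and so was the retinal dehydrogenase gene Aldh1a1 at 526 and 301 CPM (log2 fold change 0.80 ± 0.15, adjusted p = 8.9e-05).

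Genes of fat storage were lower more often than higher. Of 36 tested, 7 were higher and 22 lower (median -0.84). G0s2, an inhibitor of the droplet lipase, averaged 1.61 ± 0.461 CPM in HSC-MF-7d and 122 ± 18.5 CPM in HSC (log2 fold change -6.25 ± 0.48, adjusted p = 4.7e-10). Lipoprotein lipase (Lpl) averaged 37.7 and 307 CPM, and the adipogenic factors Cebpa and Pparg 1.33 and 0.604 CPM in HSC-MF-7d, against 70.9 and 4.06 CPM in HSC. Cideb and Fabp4, the largest falls beside G0s2 and Cebpa, are also known from hepatocytes and endothelium. For none of the falls in this list, G0s2 and Cebpa included, was the part of hepatocytes or other cells tested. The droplet coat gene Plin2 did not follow the loss of Lrat: it had 329, 337, 363 and 328 CPM in HSC-MF-7d and 309, 269.9, 255 and 258 CPM in HSC, a change of 0.31 ± 0.12 (adjusted p = 0.02).

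The contractile apparatus was gained almost as a whole. Of 48 tested genes of actin filaments and their motors and anchors, 41 were higher and 5 lower (median log2 fold change 1.54). Cnn1, the calponin of smooth muscle, had 236, 237, 193 and 268 CPM in HSC-MF-7d and 0.121, 0.417, 0 and 0 CPM in HSC. Actg2, the gamma actin of smooth muscle, had 191, 181, 129.6 and 202 CPM in HSC-MF-7d and 0, 0.0596, 0.220 and 0.196 CPM in HSC. Both were nearly silent in every uncultured library and abundant in every cultured library, with changes of 10.70 ± 0.39 and 10.45 ± 0.41 (adjusted p = 1.2e-14 and 3.7e-14).

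Flnc, a filamin of muscle, averaged 514 ± 4.34 CPM in HSC-MF-7d and 1.12 ± 0.353 CPM in HSC (log2 fold change 8.85 ± 0.18, adjusted p = 5.5e-18). Genes that most cells use rose by less but from a higher base. Actb, the cytoplasmic beta actin, averaged 5892 ± 120.1 CPM in HSC-MF-7d and 2275 ± 239.9 CPM in HSC (log2 fold change 1.37 ± 0.09, adjusted p = 5.4e-11), and the tropomyosin genes Tpm1 and Tpm2 averaged 2421 and 611 CPM in HSC-MF-7d, against 155 and 43.3 CPM in HSC. Crip1, Myl12b, Pxn, Synpo2 and Smtn were the 5 that fell. Mylk and Actn4 were not called, at 507 and 1225 CPM in HSC-MF-7d, against 569.9 and 1372 CPM in HSC.

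The CArG box is the DNA element bound by serum response factor (SRF), which with its actin-sensing coactivators switches on genes of the contractile apparatus. It was searched for on both strands in the 250 bases before each listed RefSeq start, and 41 of the 48 contractile genes had such a sequence. A CArG box was held by 9 of the 41 (22.0%): Ldb3, Fhl2, Myl9, Cnn2, Actg1, Myl6, Fhl1, Vcl and Lima1, all 9 higher in HSC-MF-7d. The box lay before 1.37% of all 11463 tested genes with a promoter sequence, before 1.78% of those called higher and before 1.17% of those called lower. Srf itself averaged 107 CPM in HSC-MF-7d and 64.9 in HSC, and its coactivator Mkl1 161 and 35.0 CPM, both higher. Of the 9 genes with a box, the 3 with a sole listed start, at least 10 CPM and the largest changes are shown. The sequences run 5′ to 3′ up to the base before the start, from RefSeq on GRCm38.p6 (chr2:156775214-156775463, plus strand, chr10:79988350-79988599, plus strand and chr11:120348496-120348745, minus strand), with the box in capitals.
Myl9: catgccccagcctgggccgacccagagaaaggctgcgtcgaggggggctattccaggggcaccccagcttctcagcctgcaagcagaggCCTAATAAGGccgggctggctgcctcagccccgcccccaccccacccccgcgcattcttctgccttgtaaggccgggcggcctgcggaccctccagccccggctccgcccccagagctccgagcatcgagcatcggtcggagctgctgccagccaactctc
Cnn2: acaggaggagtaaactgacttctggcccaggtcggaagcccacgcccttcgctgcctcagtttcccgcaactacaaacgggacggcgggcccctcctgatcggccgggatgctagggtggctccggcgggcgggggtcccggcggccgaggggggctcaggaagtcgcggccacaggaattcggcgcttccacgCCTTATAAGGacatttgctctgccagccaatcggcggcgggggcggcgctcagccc
Actg1: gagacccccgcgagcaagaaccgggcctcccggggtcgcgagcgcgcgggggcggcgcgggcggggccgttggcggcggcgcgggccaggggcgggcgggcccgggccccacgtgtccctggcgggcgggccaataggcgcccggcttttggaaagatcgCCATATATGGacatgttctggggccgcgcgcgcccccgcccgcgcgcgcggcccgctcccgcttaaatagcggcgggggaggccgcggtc
The box lies between 46 and 161 bases before the start in these sequences. Myl9, a regulatory light chain of smooth muscle myosin, had 561, 539, 461 and 578 CPM in HSC-MF-7d and 72.5, 49.4, 68.3 and 76.9 CPM in HSC (log2 fold change 3.002 ± 0.14, adjusted p = 2.7e-13). Cnn2, a calponin of non-muscle cells, had 730.4, 695, 633 and 709 CPM in HSC-MF-7d and 131, 117, 141 and 134 CPM in HSC (log2 fold change 2.40 ± 0.13, adjusted p = 3.2e-12). Actg1, the cytoplasmic gamma actin, averaged 1592 ± 50.6 CPM in HSC-MF-7d and 485 ± 60.0 CPM in HSC (log2 fold change 1.72 ± 0.09, adjusted p = 2.6e-12). A match of letters is a description and does not show binding.

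Targets of YAP and TEAD, the factors that answer to stretch and cell shape, were mostly higher too. Of 24 tested, 17 were higher and 6 lower (median 1.64). Ankrd1, a muscle ankyrin-repeat protein, had 2068, 1608, 1599.6 and 1833 CPM in HSC-MF-7d and 1.99, 2.32, 1.76 and 8.30 CPM in HSC (log2 fold change 8.97 ± 0.54, adjusted p = 1.4e-11). F3, the tissue factor that starts coagulation, had 1323, 1447, 1423 and 1550.3 CPM in HSC-MF-7d and 2.11, 1.91, 1.38 and 2.42 CPM in HSC (log2 fold change 9.53 ± 0.39, adjusted p = 6.4e-14). Ctgf, the connective tissue growth factor, had 4779.6, 4416, 4514 and 4377 CPM in HSC-MF-7d and 332, 134, 305 and 208 CPM in HSC (log2 fold change 4.21 ± 0.24, adjusted p = 6.0e-12). No library of either group overlapped for these 3 genes. Yap1, Wwtr1, Tead1, Tead2, Tead3 and Tead4 were themselves all called higher, Tead1 at 446 CPM in HSC-MF-7d and 151 CPM in HSC.

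**Figure D4:**
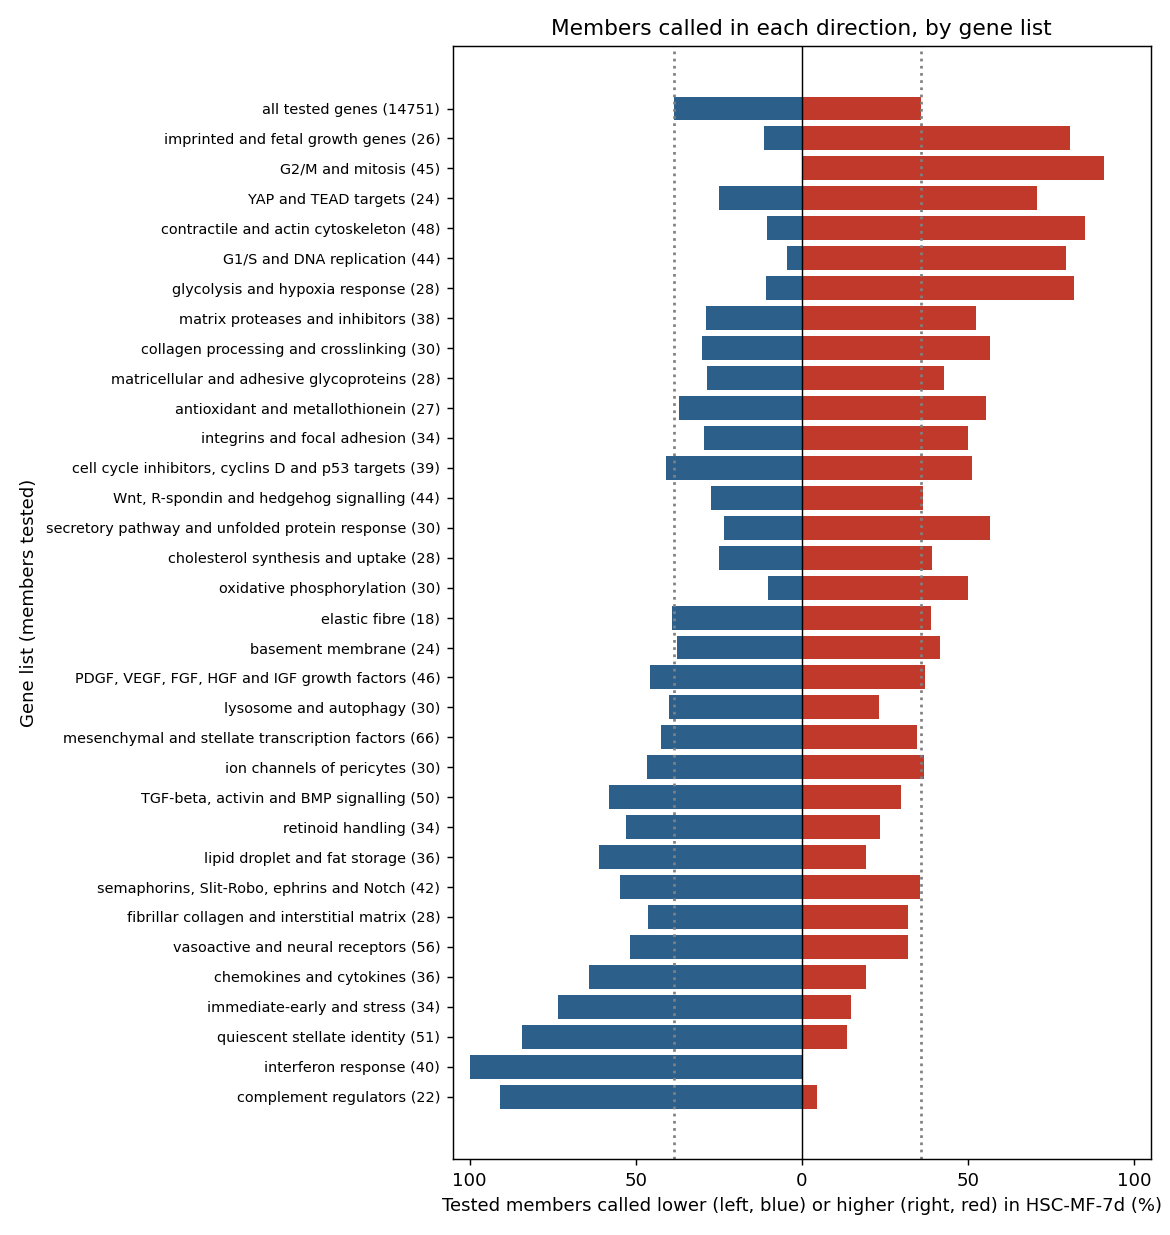
Share of the tested members of each of 33 gene lists called higher (red, right) or lower (blue, left) in HSC-MF-7d, in percent, ordered by median log2 fold change with all tested genes on top. Dotted lines mark the shares over all tested genes, 36.0% and 38.5%; mitotic, contractile, glycolytic and growth lists exceed the right line, and stellate identity, interferon, immediate-early and complement lists the left.

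Interstitial matrix genes changed in both directions. Of 28 tested, 9 were higher and 13 lower (median -0.94). The members with the largest gains were nearly silent before culture. Col12a1, a collagen that binds the surface of fibrils, had 1389, 1616, 1703 and 1555 CPM in HSC-MF-7d and 0.422, 8.05, 1.21 and 1.24 CPM in HSC (log2 fold change 9.16 ± 0.55, adjusted p = 1.3e-11). Col11a1, a minor chain at the core of fibrils, had 156, 116, 114 and 116 CPM in HSC-MF-7d and 0, 0.119, 0 and 0 CPM in HSC. With 2 counts in HSC the ratio was 4216-fold, and its 95% counting interval ran over 1167 to 34820.0.

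Has2, the enzyme that makes hyaluronan, lies on chromosome 15 (56665627 to 56694546). It had 179.9, 169.5, 187 and 158 CPM in HSC-MF-7d and 0, 0, 0 and 0.196 CPM in HSC, where 3 counts gave a ratio of 3847-fold (95% counting interval 1316 to 18660.0). Col5a2, a chain of collagen V that sets fibril width, had 3717, 3747, 3908 and 3682 CPM in HSC-MF-7d and 116, 199, 126 and 100.2 CPM in HSC (log2 fold change 4.80 ± 0.17, adjusted p = 1.1e-14), and the proteoglycan Vcan averaged 191 and 4.32 CPM.

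Other collagens and small proteoglycans were among the losses. Col14a1, a fibril-associated collagen, had 33.1, 45.5, 39.4 and 42.4 CPM in HSC-MF-7d and 4026, 4767, 5444 and 4426 CPM in HSC (log2 fold change -6.86 ± 0.31, adjusted p = 2.2e-13). Dcn, the collagen-binding proteoglycan decorin, had 1176, 1364, 1456 and 1261 CPM in HSC-MF-7d and 11013, 14561, 14299.8 and 12945 CPM in HSC (log2 fold change -3.33 ± 0.25, adjusted p = 3.0e-10). Prelp and Lum, of the same leucine-rich family, averaged 343 and 76.4 CPM in HSC-MF-7d, against 3589 and 770.4 CPM in HSC, and Col6a1, Col6a2 and Col6a3 were all lower. Col1a2, the partner chain of Col1a1 in collagen I, was not called: it had 803, 724, 668 and 822 CPM in HSC-MF-7d and 583, 939, 711 and 598 CPM in HSC (log2 fold change 0.09 ± 0.14, adjusted p = 0.561). Per length, the means of Col1a1 and Col1a2 were 933 and 351 TPM, the length-scaled unit, in HSC-MF-7d, and 88.6 and 303 TPM in HSC.

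Enzymes that modify and cross-link collagen were mostly gained. Of 30 tested, 17 were higher and 9 lower (median 0.73). Plod2, the lysyl hydroxylase of the telopeptide cross-link, averaged 290.3 ± 10.6 CPM in HSC-MF-7d and 27.9 ± 4.55 CPM in HSC (log2 fold change 3.38 ± 0.13, adjusted p = 2.7e-14). Loxl2, a relative of Lox, averaged 1398 and 157 CPM, and the collagen chaperone gene Serpinh1 1864 and 765 CPM, both higher. P4ha3, a prolyl hydroxylase, averaged 11.97 and 0.0602 CPM. Loxl1 and the procollagen proteinase enhancer Pcolce went the other way, at 12.5 and 78.3 CPM in HSC-MF-7d, against 33.0 and 275 CPM in HSC.

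Of 24 basement membrane genes, 10 were higher and 9 lower, near the shares over all tested genes. Col4a1, a chain of the general collagen IV network, had 6066, 6595, 6174 and 6776 CPM in HSC-MF-7d and 2059.9, 2665, 2509 and 2087 CPM in HSC (log2 fold change 1.46 ± 0.11, adjusted p = 1.8e-10). Col4a5 averaged 292 ± 31.6 CPM in HSC-MF-7d and 1.502 ± 0.106 CPM in HSC (log2 fold change 7.60 ± 0.13, adjusted p = 2.1e-19). Npnt, the integrin ligand nephronectin, had 114, 84.8, 84.8 and 97.9 CPM in HSC-MF-7d and 0 counts in all 4 HSC libraries, at least a 2124-fold rise. Laminin chain genes divided, with Lama1 at 27.9 CPM in HSC-MF-7d and 653 in HSC, and Lama2 at 327 and 87.2 CPM. Col18a1, the collagen from which endostatin is cut, averaged 4.37 and 75.1 CPM and is also known from hepatocytes.

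Of 18 elastic fibre genes, 7 were higher and 7 lower, also near the shares over all genes, and a few members changed by large steps. Fbln2 had 2315, 1856, 1848 and 2109 CPM in HSC-MF-7d and 1.51, 2.68, 3.08 and 1.90 CPM in HSC (log2 fold change 9.78 ± 0.42, adjusted p = 1.1e-13). The latent TGF-beta binding proteins Ltbp2 and Ltbp4 went opposite ways: Ltbp2 averaged 204 ± 15.8 CPM in HSC-MF-7d and 1.28 ± 1.01 CPM in HSC, and Ltbp4 14.9 ± 2.26 CPM in HSC-MF-7d and 1415 ± 277 CPM in HSC (log2 fold changes 7.32 ± 0.41 and -6.57 ± 0.24, adjusted p = 5.0e-12 and 1.5e-14). Elastin itself (Eln) was low and fell, at 0.929 and 14.8 CPM in HSC-MF-7d and HSC.

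Matricellular proteins, which sit in the matrix and signal rather than bear load, gave the largest gains in CPM of any gene. Thbs1, the thrombospondin that can release active TGF-beta, lies on chromosome 2 (118111876 to 118127133). It had 11186, 11591, 11613 and 11563 CPM in HSC-MF-7d and 110.4, 174, 117 and 95.03 CPM in HSC (log2 fold change 6.53 ± 0.19, adjusted p = 4.8e-16). Tnc, the tenascin of wounds and tumours, lies on chromosome 4 (63959785 to 64047015) and had 7000.4, 8933, 8933 and 9048 CPM in HSC-MF-7d and 47.9, 78.1, 44.1 and 34.7 CPM in HSC (log2 fold change 7.37 ± 0.30, adjusted p = 6.3e-14). Replicate 1 was the lowest of the cultured group for both genes, and still far above every HSC library. Sparc, a collagen-binding protein, averaged 5134 ± 245 CPM in HSC-MF-7d and 2150.1 ± 248 CPM in HSC (log2 fold change 1.26 ± 0.10, adjusted p = 4.9e-10).

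Over the matricellular list, 12 of 28 tested were higher and 8 lower. Sparcl1, a relative of Sparc, moved opposite to it at 0.459 CPM in HSC-MF-7d and 457 CPM in HSC, with HSC values of 335, 355, 620.1 and 517. Periostin (Postn), a marker of fibrosis in other organs, was not called at 959.6, 958, 983 and 907 CPM in HSC-MF-7d and 722, 815, 1137 and 789.6 CPM in HSC (log2 fold change 0.14 ± 0.18, adjusted p = 0.507).

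Proteases of the matrix and their inhibitors were higher more often than lower. Of 38 tested, 20 were higher and 11 lower (median 1.05). Mmp10, a stromelysin, had 524, 785, 797 and 802 CPM in HSC-MF-7d, with replicate 1 below the rest, and 0, 0.238, 0.0550 and 0 CPM in HSC (log2 fold change 13.13 ± 0.79, adjusted p = 1.3e-11). Mmp3, another stromelysin, averaged 162 ± 61.3 CPM in HSC-MF-7d and 0.512 ± 0.344 CPM in HSC, and the collagenase Mmp13 499 and 2.95 CPM. The plasminogen activator Plau and its receptor Plaur were higher, at 375 and 129 CPM in HSC-MF-7d, against 36.9 and 8.38 CPM in HSC. Adamts13, which cleaves von Willebrand factor and is made in the liver by stellate cells, had 0.105, 0, 0.341 and 0 CPM in HSC-MF-7d and 267, 333, 379 and 292 CPM in HSC (log2 fold change -11.58 ± 0.42, adjusted p = 3.1e-13). The gelatinase Mmp2 was lower, at 47.4 and 99.8 CPM.

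Among 34 genes of cell adhesion, 17 were higher and 10 lower. Itgb1, the common beta chain, had 5288, 5466, 5262 and 5480.1 CPM in HSC-MF-7d and 1570.2, 1665, 1876 and 1578 CPM in HSC (log2 fold change 1.68 ± 0.09, adjusted p = 3.2e-12). Of its partners, the fibronectin receptor chain Itga5 averaged 808 CPM in HSC-MF-7d and 64.7 in HSC and the collagen receptor chain Itga2 43.7 and 0.643 CPM, while Itga1, Itga8 and Itga9 were lower, Itga8 at 32.5 and 325 CPM. Cdh11, a cadherin of fibroblasts, averaged 69.9 ± 1.76 CPM in HSC-MF-7d and 0.261 ± 0.185 CPM in HSC (log2 fold change 8.06 ± 0.33, adjusted p = 6.2e-14).

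**Figure D5:**
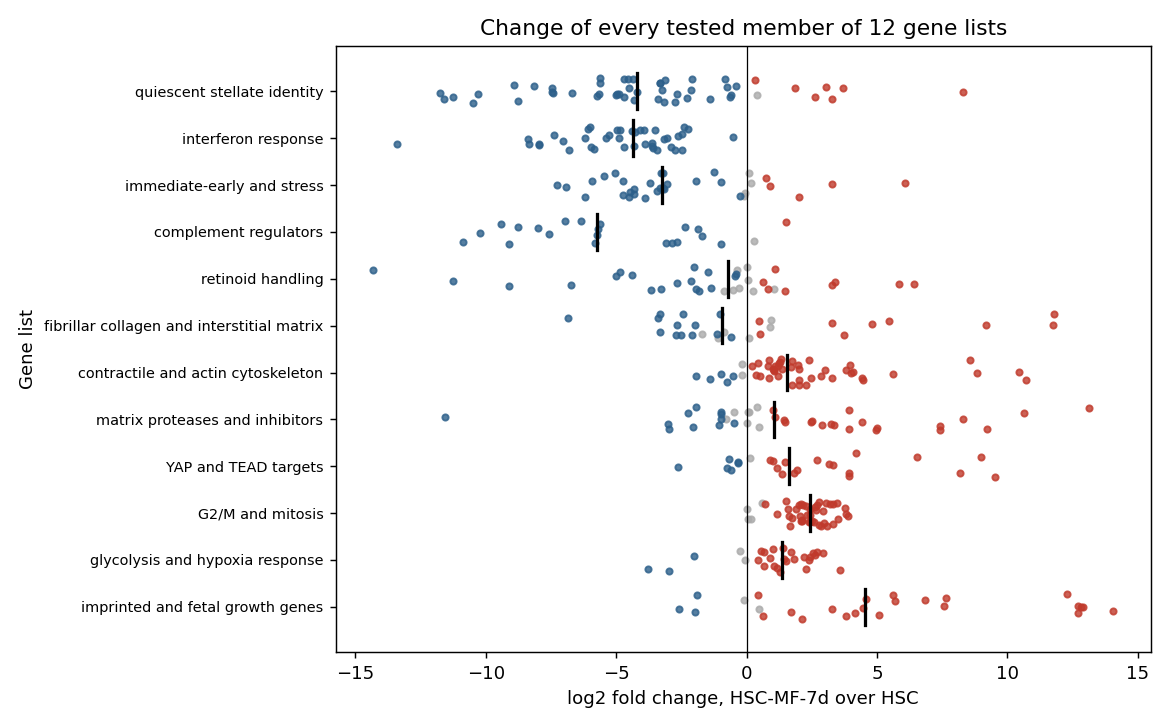
Log2 fold change of HSC-MF-7d over HSC for every tested member of 12 gene lists, 1 point a gene, red where called higher, blue where called lower and grey where not called; the bar is the list's median. Interferon members all lie left of 0 and mitotic members at or right of it, while the collagen and retinoid lists spread to both sides.

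Signalling genes of the TGF-beta superfamily were lower more often than higher, with falls in several BMP ligands and a rise in activin. Of 50 tested, 15 were higher and 29 lower (median -0.45). The ligands Gdf2 (BMP9), Gdf10, Bmp2 and Bmp5 averaged 8.27, 1.02, 10.2 and 121 CPM in HSC-MF-7d, against 1455, 421, 737 and 1137 CPM in HSC. Gdf2, which acts on endothelium, had 7.94, 8.46, 9.20 and 7.49 CPM in HSC-MF-7d and 1258, 1637, 1618 and 1309 CPM in HSC (log2 fold change -7.46 ± 0.30, adjusted p = 4.2e-14). Id1, Id2, Id3 and Id4, targets of BMP signalling, were all lower, Id3 at 102 and 521 CPM. The part of endothelium in the falls of these ligands and Id genes was not tested.

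Inhba, the subunit of activin A, averaged 1517 ± 13.4 CPM in HSC-MF-7d and 33.9 ± 7.62 CPM in HSC (log2 fold change 5.48 ± 0.18, adjusted p = 2.9e-15). Grem1, a secreted BMP antagonist on chromosome 2 (113748675 to 113758648), had 59.2, 59.2, 63.8 and 60.5 CPM in HSC-MF-7d and 0 counts in HSC, at least a 1352-fold rise. The type I receptor Bmpr1b averaged 23.7 CPM in HSC-MF-7d and had 0 counts in HSC, at least 527-fold higher. Among the TGF-beta ligands, Tgfb2 and Tgfb3 were higher, Tgfb3 at 323 CPM in HSC-MF-7d and 16.2 in HSC, and Tgfb1 was lower at 105.4, 104, 111 and 104 CPM in HSC-MF-7d and 177, 158, 158 and 146 CPM in HSC (log2 fold change -0.59 ± 0.08, adjusted p = 1.6e-06). The receptors Tgfbr1, Tgfbr2 and Tgfbr3 were lower, Tgfbr3 at 24.2 and 391 CPM.

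Of 46 growth factor genes, 17 were higher and 21 lower, little apart from the shares over all genes. Of those lower, the insulin-like growth factor binding proteins Igfbp3 and Igfbp4 averaged 25.5 and 7.10 CPM in HSC-MF-7d, against 735 and 749 CPM in HSC. Angptl6 averaged 0.552 and 692 CPM, and Angpt1, the ligand of the endothelial Tie2 receptor, 0.232 and 25.8 CPM. Ereg, a ligand of the EGF receptor, rose to 531 ± 88.0 CPM in HSC-MF-7d, against 18.3 ± 3.47 CPM in HSC (log2 fold change 4.86 ± 0.25, adjusted p = 1.5e-12). Csf1, the macrophage growth factor, averaged 3270.3 and 404 CPM, and Vegfa 138 and 21.2 CPM, both higher. Pdgfra, the other PDGF receptor gene, was lower, with a log2 fold change of -0.65 ± 0.17 (adjusted p = 0.00239).

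In the Wnt and hedgehog list, 16 of 44 tested were higher and 12 lower. Dkk2, a secreted Wnt modulator, had 73.9, 108, 94.3 and 99.2 CPM in HSC-MF-7d and 0 counts in HSC, at least a 2089-fold rise. Wnt5a, a ligand outside the beta-catenin branch, averaged 108 CPM in HSC-MF-7d and 4.99 in HSC, and the receptor Fzd2 16.1 and 0.176 CPM. The feedback targets of Wnt signalling Axin2 and Nkd1 and of hedgehog signalling Ptch1 and Hhip were lower, Nkd1 at 10.2 and 215 CPM and Hhip at 24.8 and 457 CPM. Rspo3, the R-spondin that supports Wnt signalling of central hepatocytes, averaged 52.7 and 354 CPM.

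Ligands and receptors of vasoactive hormones and nerves were lower more often than higher. Of 56 tested ligands and receptors, 18 were higher and 29 lower (median -1.58). The vasoactive intestinal peptide receptor Vipr1 had 4.52, 4.36, 4.16 and 5.84 CPM in HSC-MF-7d and 1802, 1921, 2587 and 2783 CPM in HSC (log2 fold change -8.91 ± 0.36, adjusted p = 4.6e-14). Both endothelin receptors were lower, Ednra at 4.87 and 351 CPM and Ednrb at 17.4 and 847 CPM, as was the angiotensin receptor Agtr1a at 27.4 and 622 CPM. The ligand Edn1 was higher at 34.3 and 1.37 CPM in HSC-MF-7d and HSC. Bdnf, the brain-derived neurotrophic factor, had 169.8, 188, 186 and 185 CPM in HSC-MF-7d and 0.181, 0.0596, 0 and 0.261 CPM in HSC (log2 fold change 10.50 ± 0.34, adjusted p = 2.8e-15). The serotonin receptor Htr2a averaged 83.5 and 1.25 CPM, and the cannabinoid receptor Cnr2 and natriuretic peptide receptor Npr1 were lower, at 0.0565 and 1.05 CPM in HSC-MF-7d, against 84.0 and 249 CPM in HSC.

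Of 30 ion channel genes, 11 were higher and 14 lower, shares near those over all tested genes. Trpc6, a calcium channel known to promote myofibroblast conversion, had 63.2, 60.4, 58.7 and 68.5 CPM in HSC-MF-7d and 0.0604, 0.298, 0 and 0 CPM in HSC (log2 fold change 9.35 ± 0.56, adjusted p = 1.1e-11). The stretch-gated channel Piezo1 averaged 431 and 116 CPM. Guidance genes included 15 higher and 23 lower of 42. The semaphorins Sema3a, Sema3c and Sema3e averaged 331, 60.4 and 70.6 CPM in HSC-MF-7d, against 15.7, 0.556 and 0.0754 CPM in HSC. The netrin receptor Unc5c averaged 25.9 CPM in HSC-MF-7d and had 0 counts in HSC, at least 577-fold higher. The Notch targets Heyl and Hes1 and the receptors Notch1 and Notch3 were lower, Heyl at 0.133 and 113 CPM, and these genes are also known from endothelium.

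Of 66 tested transcription factors, 23 were higher and 28 lower. Factors that define stellate cells in development were lowered but kept: Lhx2 averaged 26.5 CPM in HSC-MF-7d and 171 in HSC, Hand2 51.8 and 253 CPM, Gata4 82.0 and 217 CPM, and Foxf1 93.2 and 168 CPM. Nr1h5, a nuclear receptor gene, averaged 0.144 ± 0.118 CPM in HSC-MF-7d and 152 ± 40.4 CPM in HSC (log2 fold change -9.91 ± 0.52, adjusted p = 2.4e-11). Hmga2, a chromatin protein of fetal tissue, had 287, 275, 298 and 263 CPM in HSC-MF-7d and 0.845, 3.04, 0.770 and 0.980 CPM in HSC (log2 fold change 7.63 ± 0.31, adjusted p = 4.8e-14). Prrx1, a factor of limb and skin fibroblasts, averaged 43.3 and 1.32 CPM, and Runx1 and Runx2 were higher at 49.5 and 20.7 CPM in HSC-MF-7d, against 7.62 and 2.26 CPM in HSC. Maf and Klf2 were lower, at 8.40 and 11.5 CPM in HSC-MF-7d, against 439 and 699 CPM in HSC, and both are also expressed by sinusoidal endothelium.

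Cell cycle genes rose together. Of 44 tested genes of G1/S and DNA replication, 35 were higher and 2 lower (median 1.35), and of 45 genes of G2/M and mitosis, 41 were higher and 0 lower (median 2.42). Rrm2, the ribonucleotide reductase subunit of S phase, had 175, 163, 155 and 167 CPM in HSC-MF-7d and 7.97, 6.26, 6.44 and 5.42 CPM in HSC (log2 fold change 4.66 ± 0.14, adjusted p = 7.5e-16). The E cyclins Ccne1 and Ccne2 averaged 45.9 and 43.3 CPM in HSC-MF-7d, against 2.33 and 1.70 CPM in HSC. Plk1, the polo kinase of mitosis, averaged 20.5 ± 2.44 CPM in HSC-MF-7d and 1.49 ± 0.598 CPM in HSC (log2 fold change 3.77 ± 0.26, adjusted p = 1.3e-10).

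Many promoters of mitotic genes hold the CHR element, bound by the DREAM complex that silences them in resting cells. The letters TTTGAA were found on either strand in the 250 bases before the start of 14 of 37 G2/M genes with a sequence (37.8%) and of 13.02% of all tested genes with one. The share was 12.7% among genes called higher and 13.8% among genes called lower. Of the 14 mitotic genes with these letters, the 2 with the largest changes are shown (RefSeq, GRCm38.p6, chr2:164769679-164769928, plus strand and chr8:22185820-22186069, minus strand), with the element in capitals.
Ube2c: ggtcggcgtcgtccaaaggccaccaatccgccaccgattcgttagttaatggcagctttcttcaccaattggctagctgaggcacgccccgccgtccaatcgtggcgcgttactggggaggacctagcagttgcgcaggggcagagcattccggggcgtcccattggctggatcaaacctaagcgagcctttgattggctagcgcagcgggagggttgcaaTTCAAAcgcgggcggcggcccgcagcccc
Ckap2: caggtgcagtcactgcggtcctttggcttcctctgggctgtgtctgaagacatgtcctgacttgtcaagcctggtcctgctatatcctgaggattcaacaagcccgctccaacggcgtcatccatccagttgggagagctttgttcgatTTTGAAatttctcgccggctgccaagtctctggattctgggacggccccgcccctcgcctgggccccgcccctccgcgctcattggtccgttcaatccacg
Ube2c, the ubiquitin-conjugating enzyme that drives exit from mitosis, had 24.7, 26.0, 20.4 and 22.8 CPM in HSC-MF-7d and 2.53, 1.19, 1.71 and 0.915 CPM in HSC (log2 fold change 3.88 ± 0.24, adjusted p = 1.4e-11). Ckap2, a spindle protein, had 58.0, 61.6, 61.0 and 72.7 CPM in HSC-MF-7d and 4.10, 6.73, 3.41 and 3.59 CPM in HSC (log2 fold change 3.83 ± 0.22, adjusted p = 8.6e-12).

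Brakes on the cell cycle moved both ways. Of 39 tested inhibitors, D cyclins and p53 targets, 20 were higher and 16 lower. Cdkn1a (p21) averaged 628 ± 5.87 CPM in HSC-MF-7d and 137 ± 22.7 CPM in HSC (log2 fold change 2.20 ± 0.11, adjusted p = 1.0e-12), with the p53 targets Mdm2, Ccng1, Phlda3, Zmat3 and Eda2r also higher. Eda2r, a receptor of the TNF family, had 138, 147, 145 and 141 CPM in HSC-MF-7d and 7.73, 3.64, 2.97 and 3.92 CPM in HSC (log2 fold change 4.97 ± 0.22, adjusted p = 1.4e-13). The p15 and p16/p19 genes Cdkn2b and Cdkn2a averaged 22.4 and 9.21 CPM in HSC-MF-7d, against 1.74 and 0.767 CPM in HSC. The quiescence inhibitors Cdkn1b (p27) and Cdkn1c (p57) were lower, Cdkn1b at 15.9 and 75.7 CPM.

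The immediate-early genes, which fire within minutes of a stimulus, were high in the uncultured group. Of 34 tested, 5 were higher in HSC-MF-7d and 25 lower (median -3.25). Fos had 14.0, 19.1, 23.5 and 33.3 CPM in HSC-MF-7d and 2463, 3372, 4707 and 3179.6 CPM in HSC (log2 fold change -7.26 ± 0.47, adjusted p = 4.6e-11). Fosb averaged 12.7 CPM in HSC-MF-7d and 1539 in HSC, Socs3, an inhibitor of cytokine signalling, 12.7 and 938 CPM, and the heat shock gene Hspa1a 15.8 and 692 CPM. Fosl1, a late member of the AP-1 family, went the other way, at 60.5 ± 0.924 CPM in HSC-MF-7d and 0.887 ± 0.628 CPM in HSC (log2 fold change 6.07 ± 0.32, adjusted p = 2.4e-12).

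Interferon-response genes were lower without exception among the 40 tested: 0 were higher and 40 lower (median -4.37). The same count held with libraries scaled by totals and without HSC replicates 1 and 2. HSC replicates 3 and 4 still held endothelial genes at 28294 and 28582 CPM and Kupffer cell and macrophage genes at 12654 and 8574 CPM. The part of those cells in the interferon falls was not tested. Iigp1, an immunity-related GTPase, had 1.74, 2.79, 1.43 and 3.19 CPM in HSC-MF-7d and 500.4, 444, 825 and 540.0 CPM in HSC (log2 fold change -7.96 ± 0.33, adjusted p = 6.6e-14). Cxcl9, a chemokine that draws T cells, had 0 counts in HSC-MF-7d and 76.3, 46.2, 74.9 and 64.7 CPM in HSC, a fall of at least 1578-fold. Oas2, a sensor of viral RNA, averaged 0.190 and 63.1 CPM. The MHC class I genes H2-K1, H2-D1 and B2m averaged 119, 208 and 549 CPM in HSC-MF-7d, against 2341, 3165 and 3680.2 CPM in HSC, with the H2 values uncertain because near-identical genes share reads. The transducers Stat2, Irf1, Irf7 and Irf9 were lower as well, Stat2 at 8.89 to 14.9 CPM in HSC-MF-7d and 99.7 to 152 CPM in HSC (log2 fold change -3.53 ± 0.21, adjusted p = 1.5e-11).

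The interferon-stimulated response element (ISRE), through which interferons switch genes on, was searched for on both strands as a pair of GAAA with any 2 bases between them. It lay in the 250 bases before the start of 19 of the 32 interferon genes with a sequence (59.4%) and of 3.24% of all tested genes with one. Among all genes called lower 4.11% held it, among those called higher 2.74%. Of the 19 interferon genes that held it, the 3 with a sole listed start, at least 10 CPM and the largest falls are shown. The sequences (RefSeq, GRCm38.p6, chr3:142496684-142496933, plus strand, chr19:34607707-34607956, plus strand and chr5:120777660-120777909, minus strand) have the element in capitals, read as TTTC when it lies on the opposite strand.
Gbp5: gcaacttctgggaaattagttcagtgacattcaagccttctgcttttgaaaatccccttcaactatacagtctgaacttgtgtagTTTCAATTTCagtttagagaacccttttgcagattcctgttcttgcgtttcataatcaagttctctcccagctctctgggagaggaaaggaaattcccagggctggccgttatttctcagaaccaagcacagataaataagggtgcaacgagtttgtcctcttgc
Ifit3b: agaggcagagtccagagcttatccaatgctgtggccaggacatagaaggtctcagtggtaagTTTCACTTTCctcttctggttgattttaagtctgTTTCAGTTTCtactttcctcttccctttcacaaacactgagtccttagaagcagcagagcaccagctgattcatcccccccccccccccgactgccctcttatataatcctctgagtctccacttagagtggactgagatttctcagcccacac
Oas3: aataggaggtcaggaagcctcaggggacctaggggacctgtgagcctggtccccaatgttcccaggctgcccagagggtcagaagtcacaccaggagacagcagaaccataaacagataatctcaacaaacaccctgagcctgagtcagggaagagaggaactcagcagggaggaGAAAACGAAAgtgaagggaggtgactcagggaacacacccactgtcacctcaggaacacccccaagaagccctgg
Gbp5, a guanylate-binding GTPase, had 0.263, 0.507, 0.136 and 0.106 CPM in HSC-MF-7d and 68.2, 79.1, 72.8 and 49.998 CPM in HSC (log2 fold change -7.98 ± 0.36, adjusted p = 2.5e-13). Ifit3b, which binds foreign RNA and is nearly identical to Ifit3, had 0.210, 0.253, 0.749 and 0.425 CPM in HSC-MF-7d and 56.6, 58.3, 99.5 and 53.5 CPM in HSC (log2 fold change -7.40 ± 0.51, adjusted p = 9.2e-11). Oas3, a relative of Oas2, had 0.263, 0.0507, 0.341 and 0.212 CPM in HSC-MF-7d and 47.3, 26.8, 30.8 and 7.65 CPM in HSC (log2 fold change -7.03 ± 0.66, adjusted p = 9.1e-09). Reads shared within the Gbp and Ifit families make these values uncertain by gene.

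Chemokines and cytokines numbered 7 higher and 23 lower of 36. Cxcl12, which retains blood stem cells and leukocytes, had 1297, 1045, 1107 and 1056 CPM in HSC-MF-7d and 3811, 4496, 6014 and 5111 CPM in HSC (log2 fold change -2.11 ± 0.20, adjusted p = 9.8e-09). Tnfsf10, the death ligand TRAIL, had 0 counts in HSC-MF-7d and 55.3, 53.3, 74.0 and 68.8 CPM in HSC, at least 1514-fold lower. Cxcl2 averaged 0.369 and 98.5 CPM, and Ccl19 had 2 counts in HSC-MF-7d and 18.8 CPM in HSC. Lif and Il11, of the interleukin-6 family, were higher at 54.2 and 4.59 CPM in HSC-MF-7d, against 1.39 and 0.213 CPM in HSC. Ptgs2, the inducible cyclooxygenase on chromosome 1 (150100031 to 150108234), had 3507, 3562, 3871 and 3754 CPM in HSC-MF-7d and 18.2, 10.6, 6.99 and 5.29 CPM in HSC (log2 fold change 8.48 ± 0.46, adjusted p = 3.4e-12).

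Complement genes were lost with few exceptions: of 22 tested, 1 was higher and 20 lower (median -5.73). C3 and Cfb had higher values in HSC replicates 1 and 2, as the hepatocyte sums did, C3 at 957, 1965, 209 and 264 CPM and Cfb at 417, 573, 242 and 179 CPM, against 0.315 to 0.584 and 0.409 to 0.760 CPM in HSC-MF-7d. Colec11 and Cd55, in contrast, varied little between HSC libraries: Colec11, a collectin made by stellate cells, had 3.10, 4.05, 3.68 and 5.63 CPM in HSC-MF-7d and 1564, 1658, 2113 and 1849 CPM in HSC (log2 fold change -8.76 ± 0.40, adjusted p = 2.8e-13). Cd55, which protects cells from complement, averaged 1.53 ± 0.426 CPM in HSC-MF-7d and 398 ± 31.6 CPM in HSC. Masp1, the protease that acts with the collectins, was lower by less, at 1558 CPM in HSC-MF-7d, against 3103 CPM in HSC.

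Genes of glycolysis and the hypoxia response, taken as 1 list, were mostly higher after culture. Of 28 tested, 23 were higher and 3 lower (median 1.34). Pgk1, Eno1, Pkm and Gapdh averaged 322, 581, 2089 and 1226 CPM in HSC-MF-7d, against 55.3, 108, 426 and 268 CPM in HSC. The lactate exporter Slc16a3 averaged 27.8 ± 0.302 CPM in HSC-MF-7d and 4.51 ± 2.05 CPM in HSC (log2 fold change 2.62 ± 0.22, adjusted p = 2.0e-09). Ndrg1 and Pdk1, which respond to hypoxia, were lower, Ndrg1 at 22.3 and 174 CPM.

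Genes of oxidative phosphorylation changed by less. Of 30 tested, 15 were higher and 3 lower (median 0.27), and only Atp5b reached a 2-fold change, at 1052 CPM in HSC-MF-7d and 517 CPM in HSC. Of 28 cholesterol genes, 11 were higher and 7 lower, with the exporter Abca1 at 17.5 and 242 CPM in HSC-MF-7d and HSC. Secretory pathway genes numbered 17 higher and 7 lower of 30. Their largest change was in Asns, the asparagine synthetase of the amino acid response, at 76.8 ± 2.23 CPM in HSC-MF-7d and 1.15 ± 1.198 CPM in HSC (log2 fold change 6.06 ± 0.38, adjusted p = 2.2e-11). Lysosome and autophagy genes numbered 7 higher and 12 lower of 30, a balance that was even with libraries scaled by totals. The protease Ctsb averaged 437 and 2094 CPM in HSC-MF-7d and HSC, and the part of other cells in its fall was not tested.

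Of antioxidant genes, 15 of 27 were higher and 10 lower. Several targets of the stress factor NRF2 were among the higher ones. Nqo1, a quinone reductase, had 212, 155, 173 and 155 CPM in HSC-MF-7d and 3.92, 3.87, 4.18 and 5.75 CPM in HSC (log2 fold change 5.29 ± 0.17, adjusted p = 1.7e-15). Slc7a11, the cystine importer, averaged 25.8 and 0.0550 CPM, Hmox1, the haem oxygenase, 1627 and 259 CPM, and Txnrd1, a thioredoxin reductase, 1077 and 153 CPM in HSC-MF-7d and HSC. The extracellular superoxide dismutase Sod3, a product of quiescent stellate cells, was lower at 96.8 and 1943 CPM, and Selenop, a plasma selenium carrier that hepatocytes also make, had 41.1, 49.9, 48.2 and 47.0 CPM in HSC-MF-7d and 9199, 7322, 7851 and 9941 CPM in HSC (log2 fold change -7.53 ± 0.26, adjusted p = 8.0e-15). Apoe, a lipid carrier shared with hepatocytes and macrophages, averaged 18.3 ± 4.64 CPM in HSC-MF-7d and 5848 ± 821 CPM in HSC (log2 fold change -8.32 ± 0.39, adjusted p = 4.4e-13).

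Ranked by fold, the largest gains included genes known from nerve, skin and placenta. Syt13, a synaptotagmin, had 161, 141, 121 and 150.1 CPM in HSC-MF-7d and 0 counts in HSC, at least 3192-fold higher. Cck, the gut and brain hormone cholecystokinin, had 47.6, 37.3, 42.9 and 46.5 CPM in HSC-MF-7d and 0 counts in HSC, at least 971-fold higher. The skin barrier genes Lce1h and Ivl, of which Ivl encodes involucrin, averaged 104 and 41.8 CPM in HSC-MF-7d with 0 counts in HSC, at least 2318-fold and 932-fold higher. Lce1g and the heparan sulfate 6-O-sulfotransferase gene Hs6st2 had 1 count each in HSC, and ratios of 9358 (95% counting interval 1679 to 369700.0) and 16540.0 (2968 to 653300.0). The prolactin-like placental genes Prl2c2 and Prl2c3 averaged 40.8 and 46.9 CPM in HSC-MF-7d with 0 counts in HSC, at least 909-fold and 1044-fold higher. The Lce1 and Prl2c genes have near-identical relatives, so the share of each member is uncertain.

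Imprinted genes and genes of fetal growth were gained as well. Of 26 tested, 21 were higher and 3 lower, but 6 of them (Psg22, Lce1g, Lce1h, Prl2c2, Prl2c3 and Cck) entered the list because earlier results of these data named them. Without those 6, 15 of 20 were higher and 3 lower, with a median log2 fold change of 3.54. Peg3, Peg10 and Rian, 3 imprinted genes, averaged 385, 337 and 52.6 CPM in HSC-MF-7d, against 21.6, 9.90 and 1.06 CPM in HSC. The RNA-binding proteins Igf2bp1 and Igf2bp3 of fetal tissue averaged 15.3 and 9.27 CPM in HSC-MF-7d, against 0.0817 and 0.0817 CPM in HSC. Igf2 and Cdkn1c were lower and H19 was not called, at 1.08, 4.32 and 0.413 CPM in HSC-MF-7d, against 6.601, 16.2 and 0.297 CPM in HSC.

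Ranked by fold with the set-aside genes left out, the largest losses were partly of hepatocyte genes that the lists had missed. H2-Q10, a secreted MHC class I protein, had 0 counts in HSC-MF-7d and 218, 269, 61.8 and 96.7 CPM in HSC, at least 3887-fold lower. Lrg1, Aadac, Mettl7b, Cpn2 and Marc1 had 0 counts in HSC-MF-7d and fell at least 1771-fold, 832-fold, 749-fold, 722-fold and 592-fold. Pigr, the receptor that carries immunoglobulin A into bile, had 1 count in HSC-MF-7d, a ratio of 10400.0 (95% counting interval 1865 to 410600.0). Aadac, an esterase of the hepatocyte, had 44.3, 54.4, 12.1 and 27.5 CPM in HSC, higher in replicates 1 and 2 as the hepatocyte sums were. Kcna2, a potassium channel of neurons, and Pgm5, a muscle protein of adherens junctions, had 0 counts in HSC-MF-7d. Kcna2 had 51.7, 25.4, 34.9 and 15.8 CPM in HSC and Pgm5 46.5, 34.0, 59.0 and 55.2 CPM, at least 769.6-fold and 1173-fold lower.

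Portal cells were cultured as well, and the change in stellate cells was set against the change of PMSC-MF-7d over PMSC in the same model. The changes of both cell types differed for 8943 genes (60.6%), and for 8 of the 12 panel genes. Acta2 rose by 8.57 in stellate and 4.996 in portal cells on the log2 scale, a difference of 3.57 ± 0.28 (SE; adjusted p = 2.1e-09). Lox rose by 7.91 and 2.17, a difference of 5.74 ± 0.46 (adjusted p = 2.7e-09), and Timp1 by 7.40 and 2.22, a difference of 5.18 ± 0.44 (adjusted p = 7.3e-09). Portal cells started from higher levels of these genes, 788 CPM on average for Lox in PMSC, against 5.84 CPM in HSC. Mki67 went the other way, with changes of 2.13 in stellate and 4.99 in portal cells, a difference of -2.86 ± 0.33 (adjusted p = 4.4e-07). The losses of Lrat and Reln did not differ past the threshold, at 0.61 ± 1.04 and 0.91 ± 0.45 (adjusted p = 0.642 and 0.0898). Both genes started lower in portal cells: Lrat averaged 161 CPM and Reln 47.3 CPM in PMSC, while Reln averaged 6548 CPM in HSC. Lrat averaged 0.0373 CPM in PMSC-MF-7d, near the floor of 3 counts. If the cultured stellate cells were held for 3 and not 7 days, the times would differ between the cell types; against PMSC-MF-3d in place of PMSC-MF-7d, 9092 genes differed.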

How the data were processed

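RNA of 4 HSC-MF-7d and 4 HSC libraries was analysed, with the study's other 12 libraries in the model. Per the labels' protocols, an RNeasy Micro kit was used for total RNA and libraries were made with the KAPA Stranded mRNA-Seq kit. The submitters' processing notes name the mm10 build and the tools RSEM 1.2.28, STAR 2.5.3a, Trimmomatic and FastQC; their settings are not given in the sources used here. The deposited expected counts are RSEM estimates per gene, not normalised, per the file headers. The deposited TPM values, RSEM's length-scaled levels per the file headers, were used for levels per length and an alternative test. The deposited FPKM values, per the file headers, entered no test.

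Expected counts were rounded. They summed to 13572278 to 18382038 in HSC-MF-7d and 14806349 to 18650355 in HSC. Genes with low counts were left out with edgeR 4.0.16 (filterByExpr, R 4.3.3), which kept 14751 of 24848 genes. After TMM scaling, edgeR's robust quasi-likelihood test was run on all 20 libraries with a mean per group, with Benjamini-Hochberg adjustment over the tested genes. The SE is the log2 fold change over the square root of F. Replicates of a group differed beyond sampling noise. Libraries were not paired by replicate number, since the labels do not state such a pairing. Floors of 3 counts and 95% intervals cover counting error only.

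The members, gene lists and tests were chosen with earlier results of these data known. The named genes are the 12 largest rises and falls in fold (at least 20 CPM in the higher group, no overlap, set-aside and predicted genes left out) and in CPM, a panel of 12 and up to 4 called members per list with at least 10 CPM. Other list members were chosen after their values were seen. Some genes that this rule names are not reported here. Promoters are the 250 bases before each RefSeq start of GRCm38.p6, the assembly behind mm10; gene spans cover exons and introns.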

Additional observations from a re-analysis of the deposited data

Results flagged for a closer look

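Values far from the rest of their group were looked for in 106 groups of 4 libraries, of the ranked and panel genes and the marker sums, and found in 6, where chance gives about 1 in 20. In HSC-MF-7d, replicate 1 stood apart each time. Mmp10 had 524 CPM there, against 785 to 802 CPM in the other 3. Thbs1 had 11186 CPM, against 11563 to 11613 CPM, and Tnc 7000.4 CPM, against 8933 to 9048 CPM. The cholangiocyte markers summed to 15.3 CPM, against 6.48 to 7.25 CPM. In HSC, replicate 2 stood apart for Timp1, with 5.96 CPM against 1.09 to 1.38 CPM, and for Col1a1, with 516 CPM against 129 to 173 CPM.

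The culture change differed between stellate and portal cells by the interaction test for 8 panel genes. The stellate change minus the portal change was 3.57 for Acta2, 5.74 for Lox, 5.18 for Timp1, 2.61 for Des, 3.04 for Col1a1, 1.91 for Col3a1, 1.35 for Tagln and -2.86 for Mki67, on the log2 scale.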

How the results depend on the processing

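No gene called in the main test was called in the opposite direction under any of 19 other settings. With a test against a 2-fold change (glmTreat) in place of no change, 2335 genes were higher and 3068 lower, 2539 of the lower outside the set-aside lists, and 326 members of the biology lists were higher. The other counts over all genes, all set-aside genes or all biology lists stayed within 1.5 times. For single lists, the 2-fold test moved a count by more than 1.5 times and at least 3 genes in 18 of the 33 biology lists. Genes higher and lower under it, with those of the main test in brackets, numbered retinoid 5 and 15 (8 and 18), fat storage 2 and 13 (7 and 22), contractile 29 and 2 (41 and 5), collagen-modifying 11 and 6 (17 and 9), protease 17 and 6 (20 and 11), adhesion 10 and 7 (17 and 10), TGF-beta superfamily 11 and 17 (15 and 29), ion channel 6 and 10 (11 and 14), guidance 9 and 18 (15 and 23). For the rest they numbered YAP and TEAD 14 and 1 (17 and 6), G1/S 22 and 0 (35 and 2), cell cycle inhibitor 11 and 6 (20 and 16), glycolysis 15 and 3 (23 and 3), oxidative phosphorylation 0 and 0 (15 and 3), cholesterol 3 and 3 (11 and 7), antioxidant 9 and 6 (15 and 10), secretory pathway 4 and 2 (17 and 7) and lysosome 0 and 5 (7 and 12). Smooth muscle markers numbered 9 higher and 4 lower (9 and 7). Leaving out each library in turn gave 5231 to 5334 genes higher and 5495 to 5531 lower. Deviations from the group means correlated at -0.04 to 0.06 between same-numbered libraries and at -0.06 to 0.05 between the others. These values cannot decide on pairing, since the HSC libraries also varied in hepatocyte RNA. A fit with the replicate number as a block, on the 8 stellate libraries, called 5075 higher and 5233 lower. Scaling by library totals raised the share of calls that were higher to 53.2%, from 48.4%. Without HSC replicates 1 and 2 together, a setting chosen after seeing the data, 5218 genes were higher and 5356 lower, cholesterol genes numbered 16 higher and 4 lower, and secretory pathway genes 19 and 4, as they also did with libraries scaled by totals; without HSC replicate 1, lysosome genes numbered 10 higher and 9 lower. Of the set-aside lists, other immune genes numbered 7 higher and 46 lower with no filter on low counts (5 and 27), and cholangiocyte genes 2 and 5 with at least 1 CPM in 4 libraries and 1 and 5 on the 8 stellate libraries (2 and 8). Of 1083 values of the ranked and panel genes, 1073 kept their call and 10 lost it. Of these 10, 8 were of Pdgfrb, and the others were of Des and Col3a1 under the 2-fold test. Genes named only as members of a list were not followed one by one across the settings. The spread between replicates was wider in HSC (coefficient of variation 27.5%) than in HSC-MF-7d (7.84%), while the model shares 1 estimate over the groups.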
